A study of Mus musculus with 4 samples.

Results

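Transfer RNA (tRNA) genes were examined in 4 lists of Sub1 CUT&Tag peaks, each from cells sorted out of mouse bone marrow. The members were all nuclear genes that RefSeq types as tRNA on the main chromosomes of GRCm38.p6, the mm10 assembly. They numbered 403 of the 49595 genes of all types that RefSeq places there, and no peak value was used to choose them. Each gene was extended by 500 bp on both sides, and it counted as having a peak where a deposited peak overlapped that window by at least 1 bp.

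Both groups came from Nup214fl/+ mice, so every library carried 1 floxed allele of Nup214, a nucleoporin gene. Hematopoietic stem cells (HSC 1 and HSC 2) were sorted as CD48- CD150+ cells of the LSK fraction, that is, lineage-negative cells with Sca-1 and c-Kit. Leukemia stem cells (LSC 1 and LSC 2) were sorted as lineage-negative cells without Sca-1 and with c-Kit, CD16/32 and CD34 from mice with disease driven by MLL-AF9, a leukemic fusion gene. CUT&Tag cuts and tags DNA beside a bound antibody, here one against Sub1, and the tagged fragments were amplified by 17 to 20 PCR cycles. The labels do not give ages, do not state if a group's 2 libraries stem from separate mice, and give all 4 the cell type of a hematopoietic stem cell. P-values therefore measure only the spread between these libraries, which may be technical. Only the labels name Sub1 as the target, and every peak is named with an unexplained prefix, H4-Cut.

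A tRNA gene is a short transcription unit of RNA polymerase III. The factor TFIIIC recognises 2 elements inside the gene, the A box and the B box, and places TFIIIB just upstream, which recruits the polymerase. Mammalian genomes hold many copies for most anticodons, often in clusters of mixed isotypes, and not every copy is transcribed in a given cell. Sub1, called PC4 in human cells, is a cofactor of transcription that binds single-stranded DNA, and in Saccharomyces cerevisiae Sub1 has been located at genes of RNA polymerase III. The comparison asks where Sub1 peaks lay at these genes in normal and in leukemic stem cells.

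The reference tables held no tRNA sequences of their own, but their promoter windows, from 250 bases before to 50 after a gene's start, covered 4 tRNA genes whole. These 4 are shown because all had a peak in all 4 libraries and because they carry the internal promoter by which the family is transcribed. Capitals mark, from 5′ to 3′, the A box, the anticodon and the B box.
n-TTagt9: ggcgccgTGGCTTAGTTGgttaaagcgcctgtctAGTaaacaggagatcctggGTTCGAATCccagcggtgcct
n-TRtcg5: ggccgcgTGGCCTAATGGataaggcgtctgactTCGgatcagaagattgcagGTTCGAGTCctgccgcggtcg
n-TAagc16: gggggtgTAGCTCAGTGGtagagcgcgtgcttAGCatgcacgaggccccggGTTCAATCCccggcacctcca
n-TVcac9: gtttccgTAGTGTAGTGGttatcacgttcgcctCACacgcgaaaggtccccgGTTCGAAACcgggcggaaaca
The threonine gene n-TTagt9 (chr7:35234770-35234843, minus strand) spans the start site of the long noncoding gene Gm38989. The arginine gene n-TRtcg5 (chr7:79466419-79466491, plus strand) lies upstream of the start site of Polg, the mitochondrial DNA polymerase gene, at a distance of 146 bp. The alanine gene n-TAagc16 (chr13:21222586-21222657, plus strand) and the valine gene n-TVcac9 (chr13:23446142-23446214, minus strand) lie upstream of the noncoding genes Gm32420 and Gm46404. A gene inside the annotated span of Ndufs7, a subunit gene of respiratory complex I, was covered only at its 3′ end. It is shown because its locus held one of the strongest tRNA peaks in every library.
n-TNgtt7, end: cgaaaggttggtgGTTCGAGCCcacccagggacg
This stretch of an asparagine gene runs over chr10:80249199-80249232 on the plus strand, with the B box in capitals. The B box was found as the letters GTTCNANNC, where N is any base, searched on both strands without regard to other motifs. The same letters occurred in 9.3% of 32544 RefSeq promoter windows of that length, so a match describes the sequence and is not evidence of binding.

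Most tRNA gene windows overlapped a Sub1 peak in both cell types, but most did not hold a peak summit. A summit lay in the window at 112, 119, 120 and 89 of the 403 genes in HSC 1, HSC 2, LSC 1 and LSC 2. In the deposited lists 246 of 403 tRNA genes had a peak in HSC 1 and 268 in HSC 2, or 61.0% and 66.5%. The LSC libraries had peaks at 229 and 232 of them, or 56.8% and 57.6%. The other 4423 RefSeq genes of up to 200 bp, treated the same way, gave a background of 18.9%, 27.7%, 12.9% and 13.3% in HSC 1, HSC 2, LSC 1 and LSC 2. In every library the tRNA share was above this background, by a mean of 42.3 percentage points ± 2.51 (SD, n = 4; two-sided exact sign-flip permutation test, p = 0.125, the smallest value that 4 libraries allow). A peak in all 4 libraries was found at 213 tRNA genes, or 52.9%, against 9.9% of the other short genes. No library had a peak at 116 tRNA genes, or 28.8%, against 68.2% of the other short genes.

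The same windows moved by 50 kb to each side served as a local background. Of 729 moved windows, 28.1% had a peak in HSC 1, 41% in HSC 2, 12.6% in LSC 1 and 15.5% in LSC 2. The tRNA genes exceeded their moved windows by 36.2 percentage points ± 8.64 (SD, n = 4), in 4 of 4 libraries (exact sign-flip permutation test, p = 0.125). When the summit of the peak had to lie in the window, the excess was 14.1 percentage points. Single ends of protein-coding genes, extended in the same way, had a peak in 36.3%, 44.1%, 31.1% and 30.5% of 43548 cases, so tRNA genes stood above these as well.

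**Figure D1:**
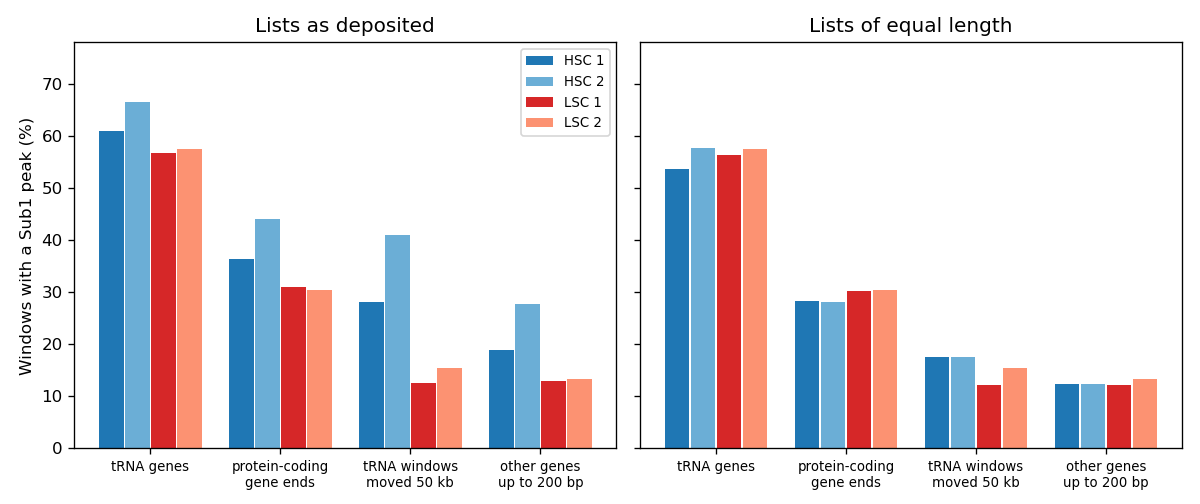
Share of windows with a Sub1 peak (percent) at the 403 tRNA genes, at single ends of protein-coding genes, at tRNA windows moved by 50 kb and at other RefSeq genes of up to 200 bp, 1 bar per library. The left panel uses the deposited lists and the right panel the 33885 strongest peaks of each library, where the 4 tRNA bars lie between 53.6% and 57.8%.

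The number of tRNA genes with a peak was not shown to differ between HSCs and LSCs. HSCs averaged 63.8% ± 3.86 (SD, n = 2) and LSCs 57.2% ± 0.526 (SD, n = 2), which is -6.58 percentage points for LSC minus HSC (two-sided exact permutation test, p = 0.333, the smallest value 2 libraries against 2 allow). The lists themselves differ in length, with 115195 (HSC 1), 234417 (HSC 2), 40743 (LSC 1) and 33885 (LSC 2) peaks on main chromosomes. When each list was shortened to its 33885 strongest peaks by -log10 p, 216, 233, 227 and 232 tRNA genes had a peak in HSC 1, HSC 2, LSC 1 and LSC 2, against 12.3%, 12.4%, 12.1% and 13.3% of the other short genes. The difference then turned to 1.24 percentage points (exact permutation test, p = 1.0).

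The groups did not overlap in how high the tRNA peaks stood among the peaks of their own library, a difference that 2 libraries against 2 cannot test at 0.05. Each peak was given a rank percentile by -log10 p within the equal-length lists, with 100 the strongest, and each tRNA gene took that of its strongest peak. The median over tRNA genes with a peak was 92.4 in HSC 1 and 91.7 in HSC 2, against 78.8 in LSC 1 and 82.4 in LSC 2. Both HSC libraries lay above both LSC libraries, by 11.4 percentiles (exact permutation test, p = 0.333, the smallest possible). Ends of protein-coding genes showed no such gap, with medians of 84.5, 84.4, 83.7 and 84.4 in the same order. The other short genes gave 81.3, 81.6, 80.1 and 82.0. In the deposited lists the tRNA medians were 97.5, 98.6, 82.4 and 82.4, but weak peaks at the end of a longer list raise every percentile above them. Protein-coding gene ends stood at 93.7, 94.9, 86.0 and 84.4 there, and the tRNA difference net of theirs was -6.56 percentiles (exact permutation test, p = 0.333). Among the deposited peaks away from protein-coding gene ends, ranked anew, the tRNA medians were 99.4, 99.7, 96.3 and 96.1. That gap was -3.39 percentiles, but these lists differ in length and the values lie near the limit of 100. In equal-length lists, 107 tRNA genes had a peak in every list and none reaching within 1 kb of a protein-coding gene end. Their medians were 90.6, 91.6, 78.5 and 84.0 in HSC 1, HSC 2, LSC 1 and LSC 2.

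Among tRNA genes with a peak, 130 in HSC 1 and 140 in HSC 2 lay in the top 10% of the list, or 60.2% and 60.1%. In LSC 1 and LSC 2 these were 34 and 54 genes, or 15.0% and 23.3%. The means were 60.2% ± 0.071 (SD, n = 2) and 19.1% ± 5.87 (SD, n = 2), a difference of -41.0 percentage points (exact permutation test, p = 0.333). Protein-coding gene ends with a peak lay in the top 10% in 34.4%, 34.8%, 32.3% and 34.1% of cases in HSC 1, HSC 2, LSC 1 and LSC 2. The other short genes gave 35.1%, 36.7%, 33% and 34.4%. The tRNA genes were thus above both comparison sets in each HSC library and below both in each LSC library.

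Gene by gene the order was the same for most members. Of 204 tRNA genes with a peak in all 4 equal-length lists, 143 (70.1%) ranked higher in both HSC libraries than in both LSC libraries, and 9 (4.41%) ranked the other way. For protein-coding gene ends the background was 18.5% and 29.6% of 10128, and for the other short genes 33.2% and 21.5% of 386. Neighbouring tRNA genes can share a peak, so the count was also made over loci, in which overlapping windows were merged. Of 126 loci with a peak in all 4 lists, 79 ranked higher in both HSC libraries and 9 in both LSC libraries. The strongest peak at a gene can be a wide one in one library and a narrower, separate one in another. Of 47 genes with a summit in the window in all 4 lists, 28 ranked higher in both HSC libraries and 2 in both LSC libraries. Of 107 tRNA genes at which no library had a peak reaching within 1 kb of a protein-coding gene end, 75 ranked higher in both HSC libraries and 4 in both LSC libraries. No background from the comparison sets is given for the counts over loci, with summits or away from gene ends. Whether these shares are particular to tRNA genes was therefore not tested.

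**Figure D2:**
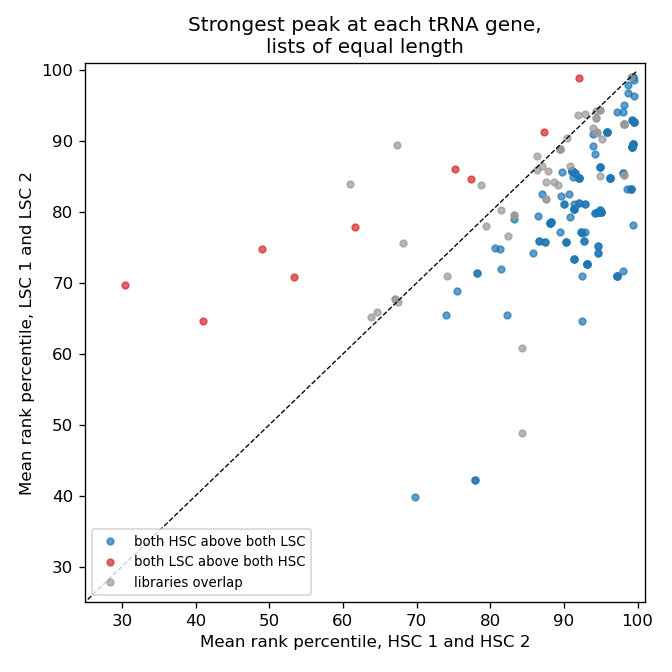
Mean rank percentile of the strongest peak at each of 204 tRNA genes in the 2 HSC libraries (horizontal) and the 2 LSC libraries (vertical), in lists of equal length; points can overlie where genes share a peak. The 143 genes with both HSC values above both LSC values lie below the dashed line of equality and the 9 reverse cases above it.

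The median pointed the same way in each isotype, although the gene-by-gene order varied. Both HSC libraries ranked above both LSC libraries at 11 of 12 proline genes and 10 of 11 lysine genes. The same held at 2 of 8 tyrosine genes and 2 of 4 histidine genes. Isotypes lie in shared clusters and can share a peak, so the amino acids are not independent counts. The median difference over the genes of an amino acid, LSC minus HSC, was negative for each of the 20 amino acids, from -2.07 percentiles for histidine to -11.7 for methionine. It was -10.7 for genes 2 to 10 kb from a protein-coding gene, -8.53 for those inside one, -7.18 for those over 10 kb away and -6.91 for those within 2 kb. The glycine gene n-TGacc1, the only one with anticodon ACC, ranked at 97.8 and 98.2 in HSC 1 and HSC 2 and at 71.9 and 71.5 in LSC 1 and LSC 2. The HSC values came from a peak of 8324 and 9900 bp that it shared with the valine gene n-TVcac7, with summits 6314 and 6516 bp away. The LSC values came from other peaks, whose summits lay at 99 and 2279 bp, so these ranks do not compare 1 site.

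Further genes were picked after their values were seen. The neighbours n-TTagt5 and n-TScga3, a threonine and a serine gene beside the circadian gene Per1 at distances of 500 and 954 bp, ranked at 80.0 and 75.8 in HSCs and at 27.1 and 57.4 in LSCs. Their shared peak was 3313, 4583 and 3425 bp wide in HSC 1, HSC 2 and LSC 2, and LSC 1 had one of 689 bp. The lysine gene n-TKctt26, near the p53 regulator gene Mdm4, had a summit within 500 bp in all 4 libraries and ranked at 93.0 and 91.7 in HSCs and at 76.9 and 77.5 in LSCs. The gap of any gene was widest in the other direction, at the glutamate gene n-TEttc5 inside Btn1a1, a butyrophilin gene. It ranked at 8.0 and 52.9 in HSCs and at 70.5 and 68.9 in LSCs, with peaks of 363, 2579, 2546 and 2347 bp in HSC 1, HSC 2, LSC 1 and LSC 2. The leucine gene n-TLtag2 ranked at 47.9 and 34.2 in HSCs and at 70.7 and 58.6 in LSCs.

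Other RNA polymerase III genes were set beside the tRNA genes. The 51 annotated 5S rRNA genes, of which 40 lie on chromosome 8, had a peak in 41, 41, 34 and 41 cases in HSC 1, HSC 2, LSC 1 and LSC 2. Of 30 with a peak in all 4 equal-length lists, 27 ranked higher in both HSC libraries and 0 in both LSC libraries, although neighbouring repeats share peaks and all 30 belong to the chromosome 8 array. The Y RNA gene Rny3, whose RNA binds the Ro60 protein, had a fold of 191 and 164 in HSCs and of 18.6 and 42.0 in LSCs. The fold is the authors' ratio of pileup to background, and it serves here only to describe a peak within its own list. In equal-length lists Rny3 ranked at 99.9 and 99.9 in HSCs and at 64.1 and 76.5 in LSCs. Rn7sk, which encodes the 7SK RNA that restrains transcription elongation, ranked at 85.6 and 90.9 in HSCs and at 75.3 and 79.7 in LSCs. Rmrp, the RNA of the RNase MRP enzyme, ranked at 95.9 and 98.4 against 93.1 and 94.8. Groups overlapped at Bc1, a small cytoplasmic RNA of rodents, with 82.7 and 97.5 in HSCs and 94.3 and 96.3 in LSCs. They also overlapped at Vaultrc5, a vault RNA, with 69.9 and 83.7 against 74.2 and 75.0. Rpph1, the RNA of RNase P, and the signal recognition particle genes Rn7s1 and Rn7s2 had a peak in all 4 lists as well. Rnu6, a U6 spliceosomal gene, had a peak of fold 5.31 in HSC 2 and none in the other lists.

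Small RNA classes that are not mainly transcribed by RNA polymerase III gave a more even split. Of microRNA genes with a peak in all 4 equal-length lists, 48 of 148 ranked higher in both HSC libraries and 30 in both LSC libraries. For snoRNA genes, most of which lie in introns of host genes, these were 23 and 37 of 128. For snRNA genes they were 19 and 11 of 54.

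By amino acid, each of the 20 had at least 4 tRNA genes with a peak in all 4 libraries. Leucine stood highest, with 22 of 25 genes in all 4, followed by phenylalanine with 6 of 7 and tyrosine with 8 of 10. Proline had 12 of 16, arginine 17 of 24 and glutamate 14 of 20. Methionine, whose initiator and elongator genes the annotation does not tell apart, had 9 of 16. Histidine with 4 of 11 and alanine with 12 of 33 were tied at 36.4%, and cysteine with 4 of 57 stood lowest.

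**Figure D3:**
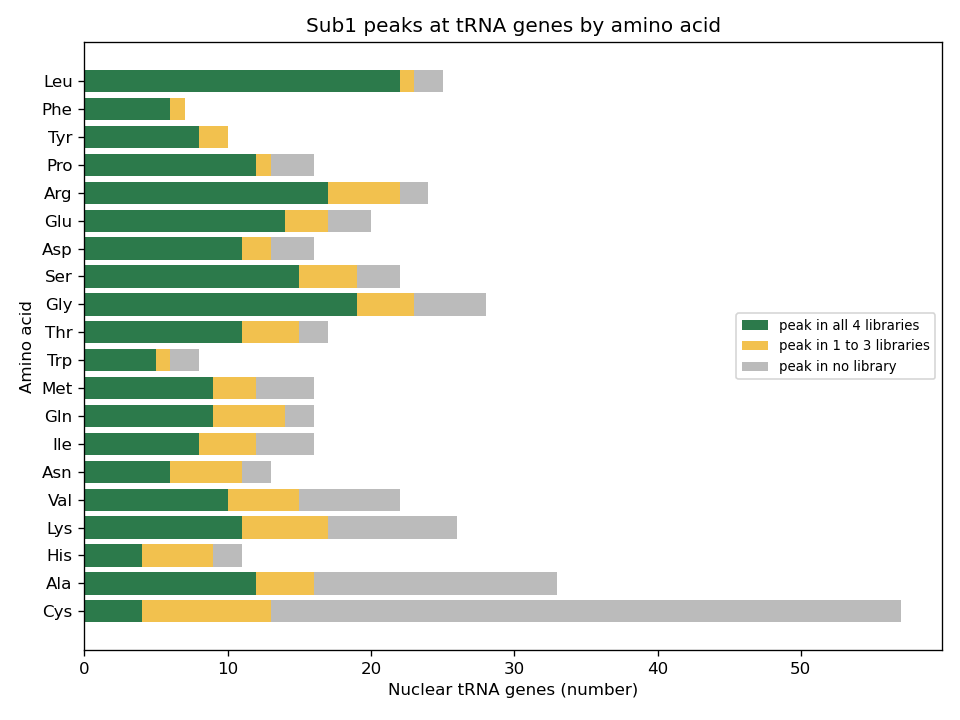
Number of nuclear tRNA genes per amino acid with a Sub1 peak in all 4 libraries, in 1 to 3, or in none (deposited lists). Cysteine has 44 of 57 genes and alanine 17 of 33 without a peak in any library, and leucine has 22 of 25 with a peak in all 4.

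For cysteine and alanine most genes without a peak lay on 1 chromosome. Of the 57 cysteine genes, 49 lie in a block on chromosome 6, where 1, 6, 1 and 0 genes had a peak in HSC 1, HSC 2, LSC 1 and LSC 2. Of the 8 cysteine genes elsewhere, 6, 6, 4 and 6 had a peak and 4 had one in all 4. Alanine genes on chromosome X had a peak in 0 of 12 cases in every library, and 12 of the 21 alanine genes elsewhere had one in all 4. Of the 17 tRNA genes on chromosome X, 15 had no peak in any library. Without the cysteine genes of chromosome 6, 60.2% of 354 tRNA genes had a peak in all 4 libraries and 20.9% in none. Reads from near-identical copies cannot be placed with certainty, and their handling is not given in the sources used here, so a gene without a peak may be one to which reads were not assigned.

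Of 48 anticodons, 44 had at least 1 gene with a peak in all 4 libraries. For 6 anticodons with 2 or more genes every gene had one, among them Gly-UCC with 7 genes, Leu-AAG with 5 and Leu-CAA with 4. The 4 anticodons without such a gene were His-AUG, Ile-UAU, Ser-GGA and Lys-UUU. The first 3 of these have 1 gene each, and their peaks were weak. HSC 1 alone had a peak at the histidine gene n-THatg1, where its fold was 6.39. The isoleucine gene n-TItat14 had one in HSC 2 and LSC 1, with folds of 4.25 and 10.3. The serine gene n-TSgga1 had one in HSC 1 and LSC 2, with folds of 7.12 and 5.27. None of the members is annotated as a selenocysteine gene.

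Most of the strongest tRNA peaks shared by all libraries were at tRNA genes inside or beside protein-coding genes. The 10 named here are those whose weakest of 4 deposited-list percentiles was highest. Of these, 8 lie within 1 kb of a protein-coding gene. For comparison, 66 of all 213 tRNA genes with a peak in all 4 libraries lie inside or within 2 kb of one. The aspartate gene n-TDgtc8 (chr10:93452978-93453049), 347 bp from the leukotriene synthesis gene Lta4h, had folds of 87.2 and 92.3 in HSCs and 275 and 206 in LSCs. The pair n-TFgaa3 and n-TNgtt7, for phenylalanine and asparagine at Ndufs7, shared a peak with folds of 77.6 and 110 in HSCs and 290 and 200 in LSCs. The asparagine gene n-TNgtt8, 15 bp from the Polycomb gene Pcgf2, had folds of 77.6 and 135 against 236 and 208. The others were n-TGccc4 near Tia1, n-TVaac8 near Mynn, n-TCgca51 near Lasp1, n-TRcct1 near Fmc1, n-THgtg4 near Shf and n-TRacg5, which shared its peaks with n-TVcac9 of the sequences above. All 10 had a percentile of at least 93.5 in each deposited list. At n-TNgtt8, n-TGccc4, n-TVaac8, n-TCgca51, n-TRcct1 and n-TRacg5 the strongest peak's summit lay over 500 bp from the gene in every library. At n-TFgaa3, n-TNgtt7 and n-THgtg4 the summit lay within 500 bp in every library. The higher LSC folds do not show more Sub1, since fold was not comparable between lists. Over all tRNA genes with a peak the median fold was 39.3, 49.1, 78.6 and 63.3 in HSC 1, HSC 2, LSC 1 and LSC 2, the reverse of the order in rank.

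Peaks also occurred at isolated tRNA genes. Of 44 genes with no other tRNA gene within 10 kb and no protein-coding gene within 10 kb, 10 had a peak in all 4 libraries. The glutamate gene n-TEttc7 (chr7:58399315-58399386), 256756 bp from the nearest protein-coding gene, had folds of 22.8 and 26.0 in HSCs and 111 and 72.5 in LSCs. Its peak widths were 1237, 1477, 2226 and 2287 bp in HSC 1, HSC 2, LSC 1 and LSC 2. The isoleucine gene n-TIaat17 (chr17:83861944-83862036) had folds of 30.0 and 45.6 in HSCs and 88.0 and 72.5 in LSCs, and the summit of the HSC 2 peak lay inside the gene. The leucine gene n-TLtaa3, the phenylalanine gene n-TFgaa5 and the glutamate gene n-TEttc6 completed the 5 strongest, with percentiles of at least 79.9 in each deposited list.

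The share with a peak differed with distance to the nearest protein-coding gene. Within 2 kb of such a gene, 52 of 56 tRNA genes had a peak in all 4 libraries. At 2 to 10 kb it was 80 of 107, inside a protein-coding gene 14 of 34, and over 10 kb away 67 of 206. Without the cysteine genes of chromosome 6 the last count was 67 of 157. Near genes, those inside or within 2 kb, had a peak in 80.0%, 81.1%, 75.6% and 75.6% of 90 cases in HSC 1, HSC 2, LSC 1 and LSC 2. The other 313 gave 55.6%, 62.3%, 51.4% and 52.4%. The difference was 22.6 percentage points ± 2.62 (SD, n = 4), in 4 of 4 libraries (exact sign-flip permutation test, p = 0.125). It was 13.1 without the cysteine genes of chromosome 6, and 2.05 when the summit had to lie in the window (exact sign-flip permutation test, p = 0.375).

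Peaks that reach a neighbouring gene were part of these counts. At 32.5%, 31.3%, 27.9% and 32.3% of tRNA genes with a peak, every peak also reached within 1 kb of a protein-coding gene end. With such peaks left out, near genes fell to 8.89%, 10.0%, 6.67% and 4.44% and the far genes stayed at 50.5%, 55.9%, 50.8% and 48.9%. That reversal is set by the construction, since most windows near a gene lie within reach of its end. Far from protein-coding genes the tRNA share was still above its own background. Over 10 kb away it was 41.3%, 51.5%, 37.9% and 37.4%, against 11.0%, 21.6%, 4.9% and 4.08% of 245 moved windows at the same distance.

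**Figure D4:**
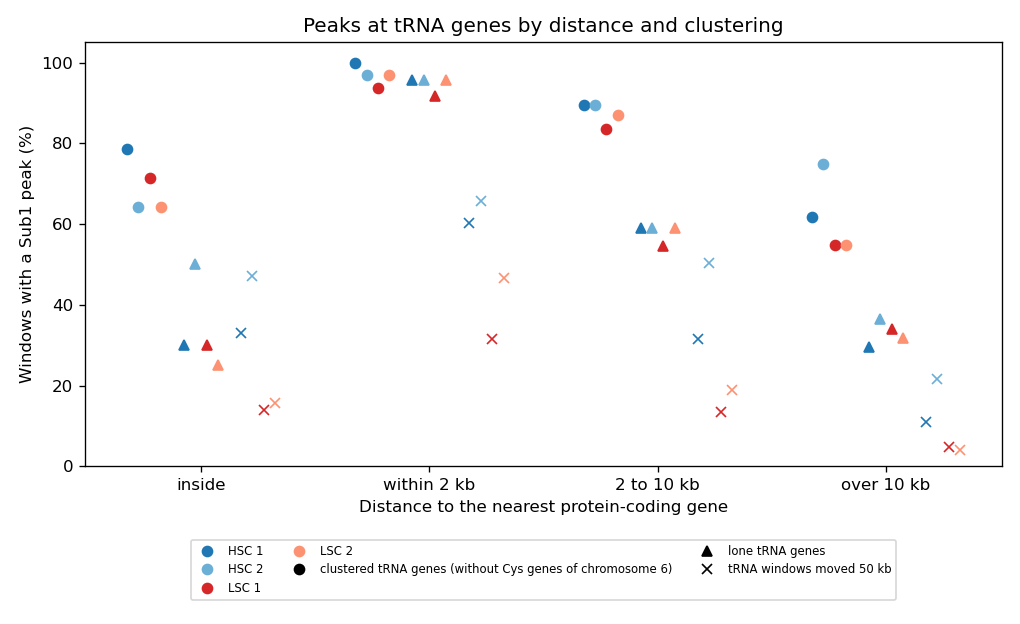
Share of windows with a Sub1 peak (percent, deposited lists) by distance to the nearest protein-coding gene, for clustered tRNA genes without the cysteine genes of chromosome 6, lone tRNA genes and moved windows classed by their own distance, 1 point per library. Both kinds of tRNA gene lie at 91.7% or higher within 2 kb, and over 10 kb away clustered genes without those cysteine genes lie at 54.8% or higher and lone genes at 36.4% or lower.

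Clustered tRNA genes, those with another within 10 kb, had a peak more often than lone ones. They numbered 293, with shares of 65.2%, 70.3%, 59.4% and 60.4% in HSC 1, HSC 2, LSC 1 and LSC 2. The 110 lone genes gave 50.0%, 56.4%, 50.0% and 50.0%. The difference was 12.2 percentage points ± 2.77 (SD, n = 4), in 4 of 4 libraries (exact sign-flip permutation test, p = 0.125). One wide peak can serve several clustered genes, and when the summit had to lie in the window the difference turned to -4.97 percentage points. Without the cysteine genes of chromosome 6 it rose to 23.7.

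The clustered genes formed 64 clusters, of which 32 had every member with a peak in all 4 libraries, 8 had no member with a peak in any, and 24 were mixed. Small clusters can share 1 peak, and of the 22 clusters of 5 or more genes 9 had every member with a peak in all 4 libraries and 13 were mixed. The largest, 22 cysteine genes on chr6:48244316-48317586, had a peak at 0, 2, 0 and 0 members in HSC 1, HSC 2, LSC 1 and LSC 2. A cluster of 15 genes on chr1:171064164-171081946, holding 6 glycine, 3 aspartate, 3 glutamate and 3 leucine genes, had a peak at all 15 in every library. These were 3, 2, 4 and 3 distinct peaks, so its members are not independent counts. The cluster of 15 genes on chr13:21907111-21940995, with 7 amino acids, had a peak at 12, 12, 6 and 9 members. In equal-length lists these counts were 8, 8, 6 and 9, so the groups overlapped.

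**Figure D5:**
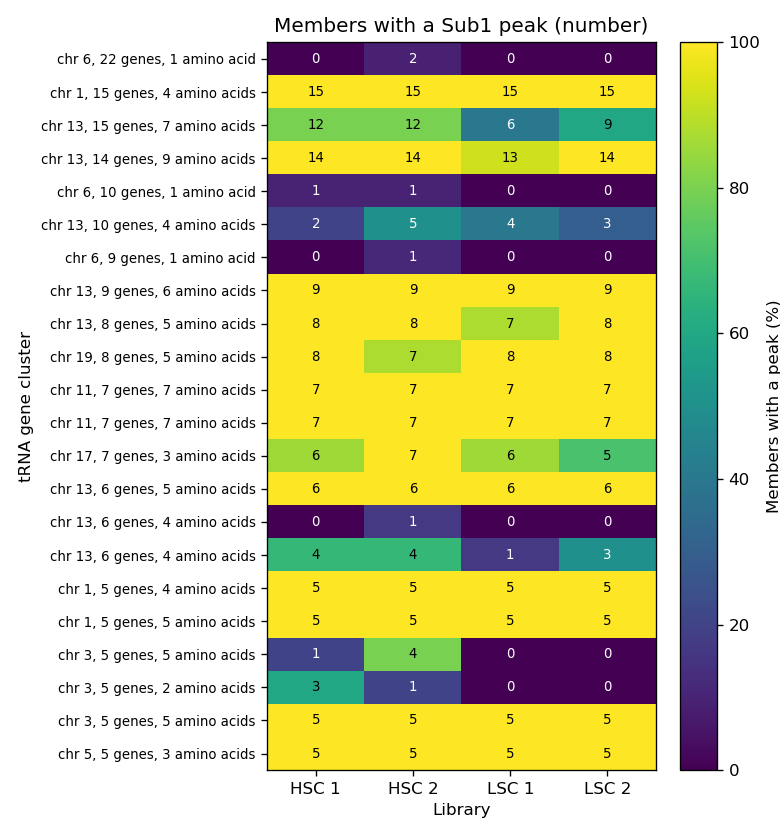
Number of members with a Sub1 peak in each library (deposited lists) for the 22 clusters of 5 or more tRNA genes, with colour giving the percent of members. In 9 clusters every member has a peak in all 4 libraries, and the 3 cysteine clusters on chromosome 6 have at most 2 members with a peak in any library.

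The tRNA genes that varied between libraries lay mostly on chromosomes 13 and 3, which also hold many tRNA genes. Of 74 genes with a peak in 1 to 3 libraries, 33 lie on chromosome 13 and 17 on chromosome 3, and 29 had a peak in HSC 2 alone, the longest list. HSC-only peaks, present in HSC 1 and HSC 2 and absent from LSC 1 and LSC 2, occurred at 10 tRNA genes, or 2.48%, against 3.35% of the other short genes. The reverse occurred at 1 gene, against 0.113%. The HSC count was 39 without HSC 1, 17 without HSC 2, 12 without LSC 1 and 17 without LSC 2, since each condition is easier to meet with 3 libraries. Pairs of 1 HSC and 1 LSC library alone gave 1, 3, 4 and 0 genes.

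In equal-length lists these counts became 3 in HSCs and 6 in LSCs, with backgrounds of 0.339% and 0.769%, and mixed pairs gave 0, 2, 2 and 0. The 3 HSC genes were n-TDgtc11, n-TIaat11 and n-TTagt4, all on chromosome 13, the last 2 sharing a peak. The aspartate gene n-TDgtc11 had percentiles of 51.8 and 48.7 there. The 6 LSC genes were n-TAagc17, n-TKctt18, n-TQttg1, n-TFgaa6, n-TRtcg2 and n-TKctt13. The glutamine gene n-TQttg1, on chromosome X, was in both LSC libraries alone under both list lengths, with percentiles of 59.6 and 66.2 in the equal-length lists. The other 7 of the 10 HSC genes were n-TGgcc1, n-TKctt24, n-TSaga7, n-TMcat10, n-TVcac10, n-TStga2 and n-TPcgg1. No call of a gene to 1 group has a test here, since 2 libraries against 2 cannot pass a threshold of 0.05.

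The strongest peak at each tRNA gene had a median width of 4366, 4405, 3362 and 4890 bp in HSC 1, HSC 2, LSC 1 and LSC 2. A wide peak is more likely to overlap a window, so widths were compared with those of peaks chosen in the same way. The strongest peaks at single ends of protein-coding genes had medians of 1576, 1515, 2410 and 2852 bp, and those at the moved windows 948, 833, 1534 and 2446 bp. In each set a peak shared by several windows was counted once for each. The 246, 268, 229 and 232 tRNA genes with a peak held only 162, 168, 144 and 127 distinct peaks. How far such sharing sets the tRNA widths was not tested. A summit lay within the 500 bp window at 45.5%, 44.4%, 52.4% and 38.4% of tRNA genes with a peak. The order of tRNA genes by peak percentile was described by Spearman's rho over the 213 genes with a peak in all 4 libraries, which share peaks within clusters. It was 0.73 between the HSC libraries, 0.76 between the LSC libraries and 0.49 to 0.62 between an HSC and an LSC library.

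Genes of the tRNA pathway carried peaks in nearly all libraries, counted within 1 kb of either annotated end. All 26 genes for RNA polymerase III subunits and factors had one in every library, among them Polr3a, which encodes the largest subunit, Brf1 of TFIIIB, Gtf3c1 of TFIIIC and the repressor gene Maf1. The same held for 21 of 21 aminoacyl-tRNA synthetase genes, which load tRNAs with amino acids. Of 24 tRNA processing genes, 22, 24, 22 and 23 had a peak in HSC 1, HSC 2, LSC 1 and LSC 2, the exceptions being the RNase P genes Rpp25 and Rpp40. Over all protein-coding genes the background was 58.1%, 68.8%, 54.9% and 52.3%.

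Depth and labels bear on all of these values. Read totals are not in the peak lists, and the constant background implied by the folds was 3.07 reads per position in HSC 1, 7.47 in HSC 2, 4.54 in LSC 1 and 4.50 in LSC 2. The part of depth in the rank difference was not tested. Of the sort markers, Ly6a, which encodes Sca-1, had a peak in each HSC library and in no LSC library, and Kit had one in all 4. Cd48, sorted against in HSCs, also had one in all 4, and Slamf1, which encodes CD150, had one in HSC 2 alone. A peak marks bound or cut DNA and not expression, and Ly6g, a neutrophil marker outside these gates, had a peak in both HSC libraries.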

How the data were processed

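Sub1 CUT&Tag was measured in 2 HSC and 2 LSC libraries. Per the submitters' processing notes, FastQC 0.11.5, Bowtie2 2.2.9, MACS2 and ChIPseeker were used with mm10; filters and duplicate handling are not given in the sources used here. Each deposited list gives per peak a fold (a ratio of pileup to background), a -log10 p, a -log10 q and a score, as the authors' caller wrote them. The lists were called per library, and the lowest deposited -log10 q was 5.21 to 5.41.

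Genes came from RefSeq (GRCm38.p6), a table without strand. It lists 408 tRNA genes, and 5 whose coordinates restart on an unplaced scaffold were dropped. Sequences came from RefSeq promoter windows, which covered 4 tRNA genes whole and 6 in part. Clusters chained tRNA genes within 10 kb. Amino acid and anticodon were read from the symbols. Peaks were ranked by -log10 p within each library; equal-length lists held 33885 peaks.

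Differences between groups were given a two-sided exact permutation p from the 6 ways to divide 4 libraries, and values within libraries by an exact sign-flip test. Alternatives were equal and half-length lists, a -log10 q of at least 10, window extensions, the summit in place of the peak, peaks at gene ends left out, moves of 20 and 100 kb and leaving out each library; the rank comparison with gene ends, the top 10%, the gene-by-gene rank counts (also over loci), the cysteine genes of chromosome 6 left out and the rank over genes with a peak in all 4 were added after seeing the data. Named genes were the 10 strongest shared, up to 10 in 1 group alone, the 5 strongest isolated, the 3 largest clusters, single-gene anticodons and a set of RNA polymerase III genes. The members, lists and tests were chosen with earlier results of these data known. The steps were tested on simulated data. Python 3.11.15, NumPy 2.4.6, pandas 2.3.3 and matplotlib 3.10.9 were used.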

Additional observations from a re-analysis of the deposited data

Results flagged for a closer look

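Peaks on the mitochondrial chromosome lie outside the comparisons above, and they overlapped mitochondrial tRNA genes in every library. Of 22 such genes, 18 had a peak in HSC 1 and 22 each in HSC 2, LSC 1 and LSC 2. These came from 6 peaks in HSC 1 and 1 peak in each other library, with highest folds of 26.8, 64.6, 106 and 64.2.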

How the results depend on the processing

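Of 145 recomputed values, 117 kept their direction or stayed within 1.5 times the reported count. The deposited-list rank difference at tRNA genes (-15.6) was negative under all 15 alternatives (-21.5 to -3.39), but longer lists raise percentiles and only the equal-length (-11.4) and half-length (-21.5) lists match lengths. Also negative was the difference in the top 10% share under all 12 (-61.5 to -25.7). The share difference between groups reversed to 1.24 in equal-length and in half-length lists. Clustered minus lone reversed to -4.97 with summits, and near minus far to -44.0 without gene-end peaks.

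Genes in both HSC libraries alone numbered 3 in equal-length lists, 1 in half-length lists and 3 with a 100 bp extension, and 12 to 39 when 1 library was left out. Genes in both LSC libraries alone numbered 6, 5 and 4 in the same order, 8 with summits, 2 without gene-end peaks, and 3 to 4 when 1 library was left out. Genes ranked higher in both HSC libraries numbered 28 of 47 with summits, 76 of 108 without gene-end peaks, 79 of 126 over loci, and 153 to 176 when 1 library was left out. Genes ranked higher in both LSC libraries numbered 0 of 213 in deposited lists, 2 with summits and 4 without gene-end peaks, and 12 to 24 when 1 library was left out. Fewer libraries make both conditions easier to meet; the cause of the other changes was not tested.

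Same-numbered libraries did not deviate together (r = 0.018 over 213 genes, which can share peaks). The labels do not state if the numbers pair the libraries, and this value cannot decide it. With a replicate block the group differences were -6.58 for the share and -15.6 for the deposited-list rank percentile, with a smallest p of 0.5. Depth per library is known only through the implied background, and weak peaks in the shorter lists cannot be told from absence.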
